A study of Homo sapiens with 2 samples.

Results

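Genes for chaperones and for the responses to unfolded protein and to amino acid shortage were compared between a CD2-positive and a CD2-negative subclone of HMC1, an established human cell line that came from a mast cell leukaemia. Both subclones had been obtained by sorting HMC1 cells with an antibody against CD2, an adhesion receptor, and each was hybridised to 1 Affymetrix U133 Plus 2.0 array. The labels give no treatment and no other difference between the 2 cultures, and a subclone is a single selected population, so CD2 and any other property of that population cannot be told apart. The 50 genes were a fixed list of 20 cytosolic and mitochondrial chaperone genes, 16 genes of the endoplasmic reticulum (ER) and 14 genes of the amino acid stress response. For each gene the brightest set on average over both arrays was used, among the probe sets annotated to that gene and no other. Of the 50 genes, 46 had such a probe set, out of 19775 genes that had one on the whole array. The floor for comparison was an intensity of 64 (log2 value 6) on the brighter array, which 37 of them reached and 9 did not. All log2 differences are CD2-positive minus CD2-negative, and a gene is counted as lower or higher where it differed at least 1.5-fold. Elsewhere these words give the direction only. With 1 array per subclone there is no error between replicates, no p-value was computed, and every difference below is a difference between 2 arrays.

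Chaperones hold newly made or damaged proteins in a state that can fold. In the cytosol the HSP70 and HSP90 systems do this, and the transcription factor HSF1 induces many of their genes when unfolded protein accumulates. In the ER, the sensors ATF6, IRE1 (gene ERN1) and PERK (gene EIF2AK3) raise ER chaperones and slow protein synthesis. PERK and kinases that sense amino acid shortage or other stress phosphorylate the initiation factor eIF2, which favours translation of ATF4, and ATF4 then induces genes of amino acid uptake and synthesis. Mast cells make and store large amounts of secreted protein.

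The arrays matched their labels for the sorted receptor, with CD2 at 219 in CD2-positive cells, against 13 in CD2-negative cells. The mast cell genes KIT (1373 in CD2-positive and 1328 in CD2-negative cells), CPA3 (1220 in CD2-positive and 207 in CD2-negative cells) and TPSAB1 (4806 in CD2-positive and 3142 in CD2-negative cells) were well above the floor. Of 9 measured marker genes of T cells, B cells and monocytes, 7 lay at or below 4, the highest value of the Bacillus probe sets that human RNA does not match, and the 9 summed to 33 in CD2-positive cells, against 32 in CD2-negative cells. The median of all 54675 probe sets was 4 on both arrays. Among the 3564 genes compared, the median log2 difference was -0.05, 55.7% had a negative and 41.9% a positive difference, 3.76% were at least 1.5-fold lower and 4.24% at least 1.5-fold higher in the CD2-positive subclone. The 18 probe sets for the spiked hybridisation controls were all lower in the CD2-positive sample (median log2 difference -0.18). Centring on these controls moves the median of the compared genes to 0.14, so a difference is best read against that of the compared genes. A lower share of cells expressing a gene and less of its RNA per cell cannot be told apart in such samples.

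The largest differences in the module were those of the stress-inducible HSP70 genes HSPA1A and HSPA1B, which were lower in the CD2-positive subclone. These neighbouring genes encode nearly the same protein, no probe set was annotated to either gene alone, and their 3 shared probe sets therefore give 1 joint signal, described here after its values were seen. The brightest read 307 in CD2-positive cells, against 687 in CD2-negative cells, 2.24-fold lower. The second, which is also annotated to the related gene HSPA1L, read 148 in CD2-positive and 353 in CD2-negative cells, 2.39-fold lower, and the third, below the floor, read 16 in CD2-positive and 49 in CD2-negative cells. All 3 shared probe sets were thus lower on the CD2-positive array. Among all 5583 probe sets above the floor on either array, 0.806% were at least 2-fold lower. Centred on the hybridisation controls, the 2 brighter sets differed by -0.98 and -1.07 on the log2 scale, so the first then lay just short of 2-fold. The 40 nearest compared genes on chromosome 6 had a median log2 difference of 0.03. HSPA1L itself read 8 in CD2-positive cells, against 16 in CD2-negative cells with its own probe set, under the floor.

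HSPA6, which encodes a strictly stress-induced HSP70, had the largest difference of the members with a probe set of their own. It read 68 in CD2-positive cells, against 116 in CD2-negative cells, 1.71-fold lower. Its other probe set, just under the floor, read 30 in CD2-positive and 60 in CD2-negative cells. HSPA6 is close in sequence to other HSP70 genes, which leaves the source of its signal among them uncertain. It lies on chromosome 1 among compared genes with a median of -0.22.

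The joint signal of HSPA8, the constitutive HSP70 gene of the cytosol, and the small RNA genes within it differed slightly in the other direction. The 4 probe sets are annotated to HSPA8 and also to small nucleolar RNA genes that lie in its introns, so none was assigned to HSPA8 alone, and they too are described after their values were seen. The brightest read 1757 in CD2-positive cells, against 1545 in CD2-negative cells, 1.14-fold higher, and the others read 1453, 1315 and 1239 in CD2-positive cells, against 1322, 1070 and 1055 for the same sets in CD2-negative cells. All 4 were higher on the CD2-positive array, with log2 differences from 0.14 to 0.30, while every probe set of the inducible genes HSPA1A, HSPA1B and HSPA6 was lower.

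**Figure D1:**
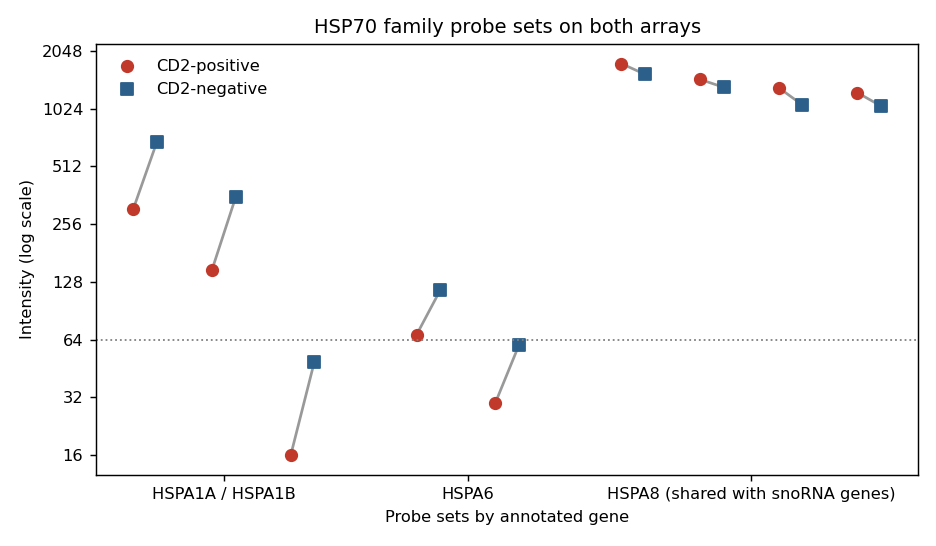
Intensity (log scale) of the probe sets annotated to HSPA1A and HSPA1B jointly, to HSPA6, and to HSPA8 together with small nucleolar RNA genes, each as a circle for the CD2-positive and a square for the CD2-negative array joined by a line; the dotted line is the floor of 64. All 3 joint HSPA1A and HSPA1B sets and both HSPA6 sets were lower on the CD2-positive array, and all 4 HSPA8 sets were higher.

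The promoter windows of these 4 genes are shown because HSF1 binds inverted repeats of the pentamer nGAAn. Each runs from 250 bases before to 50 bases after the gene's start (RefSeq, GRCh38.p14), 5′ to 3′ on the gene's strand. Capitals mark the letters GAANNTTC, a pair of such units that reads the same on both strands, and the longer GAANNTTCNNGAA on either strand, which contains it. The windows are chr6:31815293-31815592 (plus strand) for HSPA1A, chr6:31827488-31827787 (plus) for HSPA1B, chr1:161524290-161524589 (plus) for HSPA6 and chr11:123062087-123062386 (minus) for HSPA8.
HSPA1A: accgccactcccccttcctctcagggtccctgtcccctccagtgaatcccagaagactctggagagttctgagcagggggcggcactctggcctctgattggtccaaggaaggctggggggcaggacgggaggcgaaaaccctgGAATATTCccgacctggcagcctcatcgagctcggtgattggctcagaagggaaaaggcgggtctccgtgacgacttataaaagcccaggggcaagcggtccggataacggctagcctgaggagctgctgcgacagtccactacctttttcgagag
HSPA1B: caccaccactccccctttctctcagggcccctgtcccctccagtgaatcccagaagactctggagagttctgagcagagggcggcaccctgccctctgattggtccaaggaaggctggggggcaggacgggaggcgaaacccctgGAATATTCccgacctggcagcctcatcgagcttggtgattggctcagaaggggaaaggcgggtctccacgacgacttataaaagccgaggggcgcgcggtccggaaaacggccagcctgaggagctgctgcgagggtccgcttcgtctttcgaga
HSPA6: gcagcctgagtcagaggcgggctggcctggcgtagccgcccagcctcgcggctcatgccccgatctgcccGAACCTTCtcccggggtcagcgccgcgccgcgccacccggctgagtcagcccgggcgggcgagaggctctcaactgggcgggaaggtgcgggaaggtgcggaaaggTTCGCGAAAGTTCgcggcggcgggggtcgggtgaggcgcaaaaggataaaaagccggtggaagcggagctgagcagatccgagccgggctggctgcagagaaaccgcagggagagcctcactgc
HSPA8: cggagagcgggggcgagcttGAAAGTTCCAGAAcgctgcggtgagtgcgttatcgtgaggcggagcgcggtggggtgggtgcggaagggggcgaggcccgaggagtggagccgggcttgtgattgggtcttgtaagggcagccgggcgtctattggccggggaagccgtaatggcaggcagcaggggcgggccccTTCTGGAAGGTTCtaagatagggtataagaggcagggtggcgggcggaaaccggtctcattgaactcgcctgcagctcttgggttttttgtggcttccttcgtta
HSPA1A and HSPA1B share the same marked letters, which begin 106 and 105 bases before the start. HSPA6 holds the pair 180 bases before the start and a longer element that begins 74 bases before it. HSPA8 holds 2 longer elements, at 230 and 55 bases before the start, so the letters occur both in the genes whose signal was lower and in HSPA8, whose joint signal was slightly higher.

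Of the 46 members with a promoter window, the pair GAANNTTC occurred in 7 of 19 genes of the cytosolic arm, 0 of 15 of the ER arm and 1 of 12 of the amino acid arm, against 6.87% of 27305 promoters. The longer GAANNTTCNNGAA occurred in 3 of the 19 (HSPA6, HSPA8 and DNAJA1), against 0.487% of promoters. A match is a description of these letters and not evidence of binding.

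The cytosolic arm had 15 members above the floor, 13 negative and 2 positive (the chaperonin subunits CCT2 and CCT5), with a median of -0.20 against -0.05 for all compared genes. Negative differences made up 55.7% of all compared genes and 57.0% of the 672 compared genes with a mean log2 of at least 8. HSPA6 was its only member at least 1.5-fold lower, and none was 1.5-fold higher. None of the 37 members with a probe set of their own above the floor was past 2-fold, which 0.758% of all compared genes were in the lower and 1.21% in the higher direction. After centring on the hybridisation controls, 9 of the 15 were negative against 30.8% of all compared genes, and the arm's median was -0.02.

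HSP90AA1, the stress-inducible cytosolic HSP90 gene, read 1110 in CD2-positive cells, against 1416 in CD2-negative cells, 1.28-fold lower. The log2 differences of its 4 sets above the floor lay between -0.35 and -0.18. HSP90AB1, the constitutive HSP90 gene, read 1143 in CD2-positive and 1195 in CD2-negative cells, and its probe sets went both ways, from -0.07 to 0.10. Over all probe sets above the floor, HSP90AA1 thus had negative differences, all under 1.5-fold, and HSP90AB1 straddled 0. Centred on the hybridisation controls, the brightest sets differed by -0.17 for HSP90AA1 and 0.12 for HSP90AB1.

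HSPB1, a small heat shock protein that keeps unfolded proteins from aggregating, read 645 in CD2-positive cells, against 881 in CD2-negative cells, 1.37-fold lower. BAG3, a co-chaperone that hands HSP70 clients to autophagy, read 89 in CD2-positive and 112 in CD2-negative cells. Both were measured by 1 probe set above the floor. The HSP110 genes HSPH1 and HSPA4, nucleotide exchange factors for HSP70, differed by -0.23 and -0.20 with their brightest sets. The other HSPH1 set above the floor gave -0.03, and the other HSPA4 sets above it gave -0.28 and -0.06.

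The HSP40 gene DNAJB1, which delivers clients to HSP70, read 142 in CD2-positive cells, against 157 in CD2-negative cells, with both probe sets negative (-0.30 and -0.14). DNAJA1, another HSP40 gene, read 513 in CD2-positive and 561 in CD2-negative cells with its brightest set, and 158 in CD2-positive and 130 in CD2-negative cells with the other, so the direction of DNAJA1 was not settled. The 3 mitochondrial chaperones were all negative with their brightest sets. HSPA9, the mitochondrial HSP70, read 259 in CD2-positive cells, against 309 in CD2-negative cells. HSPE1 differed by -0.20 and its partner HSPD1 by -0.06, and the other HSPD1 probe set above the floor gave 0.17.

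The chaperonin TRiC, a ring of related subunits that folds actin and tubulin, went both ways. CCT5 read 277 in CD2-positive cells, against 234 in CD2-negative cells, CCT2 read 378 in CD2-positive and 351 in CD2-negative cells, and CCT3 read 202 in CD2-positive and 279 in CD2-negative cells, 1.38-fold lower. The neighbours of CCT3 on chromosome 1 had a median of -0.26. TCP1, another subunit, had only probe sets shared with a small nucleolar RNA gene, of which the one above the floor read 180 in CD2-positive and 229 in CD2-negative cells. HSF1, the regulator of the cytosolic response, lay below the floor at 36 in CD2-positive cells, against 34 in CD2-negative cells.

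**Figure D2:**
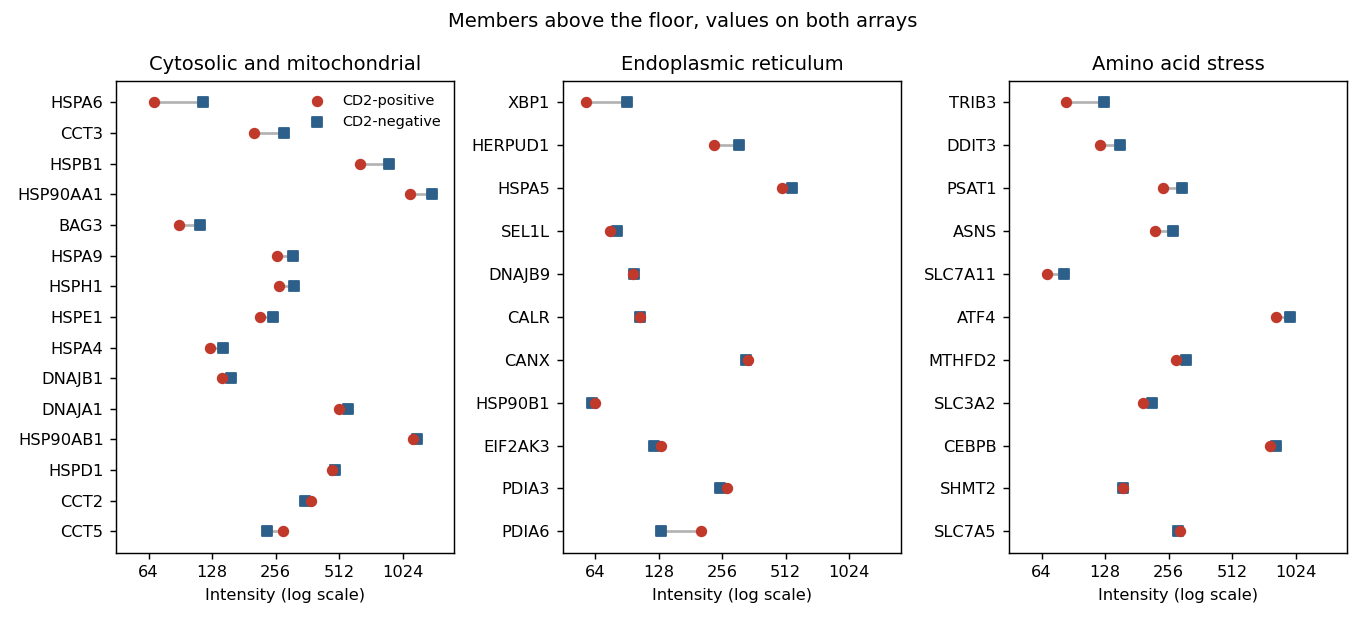
Intensity (log scale) on the CD2-positive (circles) and CD2-negative (squares) array for the 37 members above the floor, 1 panel per arm, ordered by difference. Circles lie left of squares for 13 of 15 cytosolic and mitochondrial, 5 of 11 ER and 9 of 11 amino acid stress genes, and the gap is widest for HSPA6, XBP1, PDIA6 and TRIB3.

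The ER arm showed no common direction. Of its 11 members above the floor 5 were negative, 5 positive and 1 was at 0, with a median of 0.00, against 55.7% negative and a median of -0.05 among all compared genes. XBP1, above the floor in CD2-negative cells only, was at least 1.5-fold lower and PDIA6 at least 1.5-fold higher. With the hybridisation controls at 0, 2 of the 11 were negative, against 30.8% of all compared genes.

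XBP1, whose spliced form is the transcription factor made after IRE1 activation, read 58 in CD2-positive cells, against 91 in CD2-negative cells, 1.57-fold lower. It was measured by 1 probe set above the floor, and these values do not separate spliced from unspliced transcripts. Its neighbours on chromosome 22 had a median of 0.04. Its difference was -0.47, under 1.5-fold, after centring on the hybridisation controls. HERPUD1, a membrane protein of ER-associated degradation, read 234 in CD2-positive and 309 in CD2-negative cells (1.32-fold lower), and SEL1L, of the degradation ligase complex, read 75 in CD2-positive and 81 in CD2-negative cells.

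The main ER chaperones differed little with their brightest sets. HSPA5, which encodes the ER HSP70 BiP, read 494 in CD2-positive cells, against 549 in CD2-negative cells. HSP90B1, the ER HSP90, read 64 in CD2-positive and 62 in CD2-negative cells with its own probe set, at the floor, and 302 in CD2-positive and 281 in CD2-negative cells with the brighter of 2 sets also annotated to the microRNA gene MIR3652. The other of these 2 sets read 122 in CD2-positive and 99 in CD2-negative cells (0.30). The lectin chaperone gene CALR, for calreticulin, read 104 on both arrays, and that for calnexin, CANX, read 340 in CD2-positive cells, against 331 in CD2-negative cells. The other CANX sets above the floor were negative (-0.08 and -0.11), so the direction of CANX was not settled. DNAJB9, an HSP40 that acts on BiP and IRE1, read 97 in CD2-positive and 98 in CD2-negative cells. Of the sensors, EIF2AK3 was above the floor at 131 in CD2-positive cells, against 122 in CD2-negative cells.

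PDIA6, a protein disulfide isomerase gene, was the only member at least 1.5-fold higher, at 204 in CD2-positive cells, against 131 in CD2-negative cells (1.56-fold). The log2 differences of its 4 sets above the floor lay between 0.64 and 0.76. PDIA6 lies on chromosome 2 among 37 compared genes of which 34 were positive, with a median of 0.34. What these neighbours have to do with the level of PDIA6 was not tested. PDIA3, which folds glycoproteins together with calreticulin and calnexin, read 270 in CD2-positive and 249 in CD2-negative cells. The 5 ER members below the floor (PDIA4, DNAJC3, SDF2L1, ATF6 and ERN1) read 8 to 54, with log2 differences from -0.46 to 0.14.

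The promoter of XBP1 is shown because it was the ER gene with the largest negative difference and holds the ER stress response element. The window is chr22:28800520-28800819 (GRCh38.p14, RefSeq, minus strand), written on the gene's strand, and capitals mark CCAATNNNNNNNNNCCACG, to which ATF6 binds together with NF-Y.
XBP1: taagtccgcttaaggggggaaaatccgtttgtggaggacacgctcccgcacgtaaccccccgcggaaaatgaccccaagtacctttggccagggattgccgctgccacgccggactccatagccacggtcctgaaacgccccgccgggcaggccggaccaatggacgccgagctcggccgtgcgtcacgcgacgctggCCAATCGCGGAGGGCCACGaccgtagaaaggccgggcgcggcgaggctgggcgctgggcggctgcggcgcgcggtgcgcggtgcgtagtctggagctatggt
The element begins 52 bases before the start. It occurred on either strand in 5 of 15 ER genes with a window (HSPA5, HSP90B1, CALR, CANX and XBP1), in no window of the other arms, and in 0.0806% of 27305 promoters. Of those 5 genes, by their brightest sets, HSPA5 and XBP1 had negative differences (-0.15 and -0.65), CANX (0.04) and HSP90B1 (0.05) positive ones, and CALR was at 0. The other CANX sets above the floor were negative.

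The amino acid arm had mostly small negative differences. Of 11 members above the floor 9 were negative, 1 positive and 1 at 0, with a median of -0.22, against 55.7% negative and a median of -0.05 among all compared genes. With the hybridisation controls at 0, 6 were negative, against 30.8% of all compared genes, and the median was -0.04. TRIB3 was the only member at least 1.5-fold lower, and none was 1.5-fold higher.

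All 4 regulators above the floor were negative. ATF4, the transcription factor of the arm, read 821 in CD2-positive cells, against 958 in CD2-negative cells. DDIT3, which encodes the pro-apoptotic factor CHOP, read 121 in CD2-positive and 151 in CD2-negative cells, a log2 difference of -0.32. TRIB3, a pseudokinase induced by ATF4 and CHOP, read 83 in CD2-positive and 126 in CD2-negative cells, 1.52-fold lower. The other TRIB3 probe set, below the floor, read 28 in CD2-positive and 32 in CD2-negative cells. TRIB3 lies on chromosome 20 near the end of its short arm, where 16 of its 20 nearest compared genes were negative with a median of -0.45. The difference of TRIB3 was under 1.5-fold with the hybridisation controls at 0 (-0.42) and after a lowess correction on mean level (-0.54). CEBPB, a partner of ATF4, differed by -0.08. The order from TRIB3 to CEBPB therefore runs over small differences, and the largest belongs to a gene whose neighbours were also lower; their part in it was not tested.

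ASNS, which makes asparagine, read 221 in CD2-positive cells, against 269 in CD2-negative cells, 1.22-fold lower. PSAT1, an enzyme of serine synthesis, read 240 in CD2-positive and 296 in CD2-negative cells, with its other probe set at 125 in CD2-positive and 140 in CD2-negative cells. In the mitochondrial one-carbon pathway fed by serine, MTHFD2 read 278 in CD2-positive and 308 in CD2-negative cells, and SHMT2 read 155 on both arrays. By their brightest sets these 4 enzymes thus ranged from -0.30 to 0.00, and the other SHMT2 set above the floor gave -0.13. PHGDH, the first enzyme of serine synthesis, lay below the floor at 10 in CD2-positive cells, against 8 in CD2-negative cells, and a set shared with MZT2A and MZT2B read 52 in CD2-positive and 47 in CD2-negative cells.

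SLC7A11, the cystine transporter, read 68 in CD2-positive cells, against 82 in CD2-negative cells, with its other set above the floor at 60 in CD2-positive and 80 in CD2-negative cells and 1 more, below the floor, at 9 in CD2-positive and 13 in CD2-negative cells. Its partner chain SLC3A2 read 194 in CD2-positive and 214 in CD2-negative cells, and SLC7A5, a carrier of large neutral amino acids that also pairs with SLC3A2, read 288 in CD2-positive and 283 in CD2-negative cells. All 3 SLC7A11 sets were thus lower on the CD2-positive array while SLC7A5 was nearly level. The ATF4 target CHAC1, a glutathione-degrading enzyme, read 4 on both arrays, and VLDLR, a lipoprotein receptor, read 3 on both, within the level of the Bacillus probe sets.

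The promoter of ASNS is shown because it holds the composite site of C/EBP and ATF factors, TGATGNAA. The window is chr7:97872359-97872658 (GRCh38.p14, RefSeq, minus strand) on the gene's strand, and capitals mark that site together with an overlapping GAANNTTC.
ASNS: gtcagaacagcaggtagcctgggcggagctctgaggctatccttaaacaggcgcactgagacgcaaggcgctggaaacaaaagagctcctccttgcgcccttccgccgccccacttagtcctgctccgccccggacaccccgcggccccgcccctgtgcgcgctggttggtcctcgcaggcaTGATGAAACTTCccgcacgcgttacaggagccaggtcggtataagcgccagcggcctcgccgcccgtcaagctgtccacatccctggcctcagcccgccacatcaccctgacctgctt
The site begins 68 bases before the start. On either strand it occurred in 3 of 12 amino acid genes with a window (ASNS, CHAC1 and SLC3A2), in 1 of 15 ER genes (HERPUD1) and in 3.67% of 27305 promoters. TRIB3, with the largest difference of the arm, had no match in its window.

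**Figure D3:**
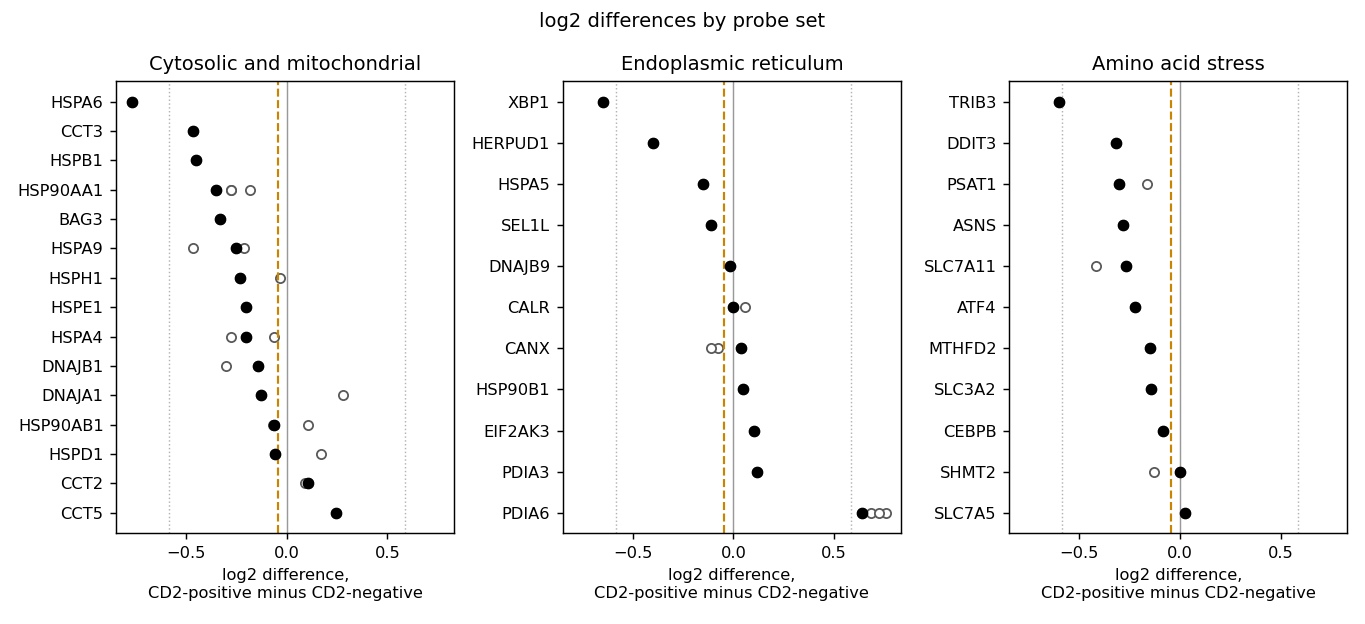
log2 difference (CD2-positive minus CD2-negative) of each member above the floor, as a filled point for the brightest probe set and open points for the gene's other sets above the floor. The dashed line is the median of all compared genes (-0.05) and dotted lines mark 1.5-fold; HSPA6, XBP1 and TRIB3 lie beyond the lower and PDIA6 beyond the upper one.

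The spread between probe sets of a gene is only a part of the uncertainty of such differences. For 937 genes at least 2 probe sets reached the floor, and the standard deviation of the gap between the 2 brightest, divided by the square root of 2, was 0.13. Because both sets were read on the same 2 arrays, this covers probe behaviour and no difference between arrays, RNA samples or cultures. Of the 37 members above the floor, 17 lay more than that below the median of the compared genes, 5 above it and 15 within it, against 32.3% of all compared genes below and 31.4% above. In the 15 members with several probe sets at that level, 7 were negative in all, 2 positive in all, and 6 had both signs or a value of 0. The same split was not computed for all compared genes, so these counts do not set the members apart.

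Further genes of the same pathways were taken from fixed lists, written with earlier results of these data known. Among further cytosolic chaperone and co-chaperone genes, 27 of 47 listed were above the floor, 20 negative and 7 positive, with a median of -0.18, against 55.7% negative and a median of -0.05 among all compared genes. Of the 27, 3 were at least 1.5-fold lower and 0 higher, against 3.76% and 4.24% of all compared genes. The most negative was SUGT1, an HSP90 co-chaperone, at 98 in CD2-positive cells, against 177 in CD2-negative cells (1.81-fold lower). Next was the prefoldin subunit gene PFDN4, at 61 in CD2-positive cells, under the floor, and 98 in CD2-negative cells. The most positive were STUB1, a ubiquitin ligase of the HSP70 system (0.18), and PFDN5 (0.09).

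Among further ER genes 26 of 44 were above the floor, 12 negative (against 55.7% of all compared genes), 12 positive and 2 at 0, with a median of 0.00 and none past 1.5-fold. SEC61B, a subunit of the translocation channel (-0.31), and EDEM3 (-0.30), which trims glycans of misfolded proteins, were the most negative. EDEM3 was above the floor in CD2-negative cells only, and its neighbours on chromosome 1 had a median of -0.38. EDEM2, of the same family, read 89 in CD2-positive cells, against 64 in CD2-negative cells (0.48), and ERO1A, the oxidase that recharges disulfide isomerases, read 192 in CD2-positive and 142 in CD2-negative cells (0.44). The ER list thus lay around 0 as the ER members did.

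Among further amino acid stress genes 27 of 43 were above the floor, 22 negative and 5 positive, with a median of -0.18, against 55.7% negative and a median of -0.05 among all compared genes. Of the 27, 4 were at least 1.5-fold lower and 0 higher, against 3.76% and 4.24% of all compared genes. ATF3, a stress-induced transcription factor, read 50 in CD2-positive cells, against 146 in CD2-negative cells. It was the only one past 2-fold, and its neighbours on chromosome 1 had a median of -0.33. KLHL24, a gene of the same stress response, read 57 in CD2-positive and 95 in CD2-negative cells. Both ATF3 and KLHL24 were under the floor in CD2-positive cells and were compared only through their CD2-negative values. EIF2AK1, a kinase of eIF2 that senses haem (0.16), and the arginine transporter SLC7A1 (0.15) were the most positive. With the hybridisation controls at 0, these 3 lists had medians of 0.00, 0.18 and 0.00 in the order given, against 0.14 for all compared genes.

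**Figure D4:**
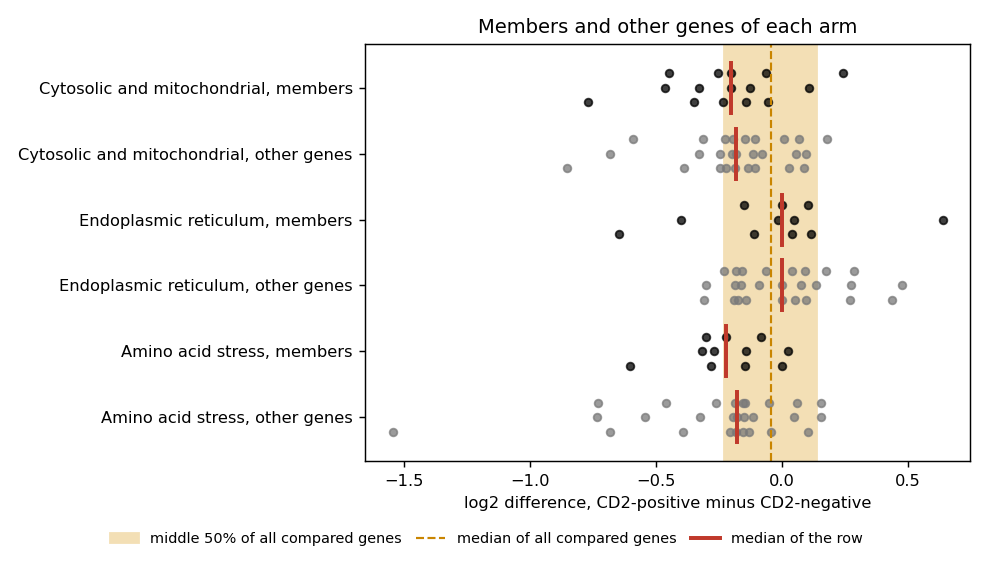
log2 difference (CD2-positive minus CD2-negative) of the members and of the other listed genes above the floor, by arm, each gene as a point (vertical offsets only separate points), with the median of each row as a short line. The shaded band holds the middle 50% of all compared genes; medians are -0.20 and -0.18 in the cytosolic, 0.00 and 0.00 in the ER and -0.22 and -0.18 in the amino acid rows.

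The chromosome neighbourhood of each member was taken as the nearest 20 compared genes on each side, or as many as there were. In 3 of the 37 members (CCT3, PDIA6 and TRIB3) the median of these neighbours lay at least 0.2 from that of all compared genes, and all 3 members lay on the same side as their neighbours. Among the other 34 members 25 were negative and 7 positive, against 55.7% and 41.9% of all compared genes. Without those 3, 2 members were at least 1.5-fold lower and 0 higher, against 3.76% and 4.24% of all compared genes. HSPA6 and XBP1 are the 2 that were lower, XBP1 with a CD2-positive value under the floor.

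**Figure D5:**
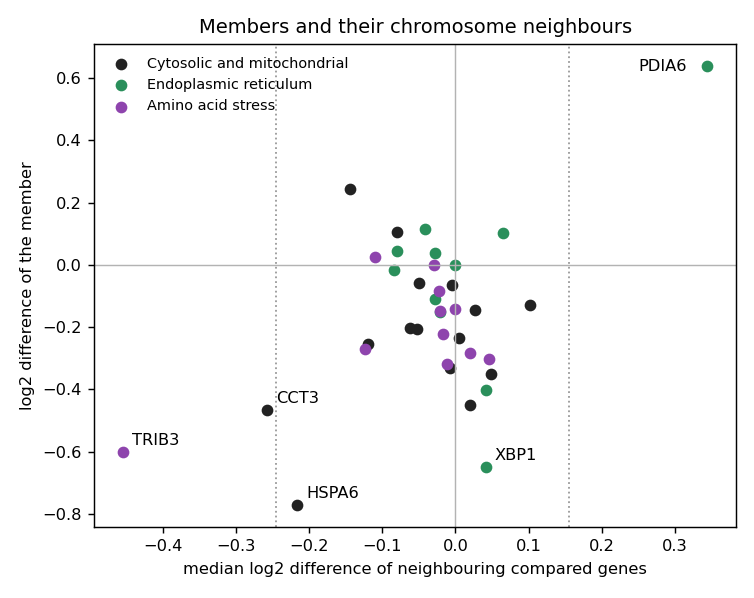
log2 difference of each of the 37 members (vertical axis) against the median log2 difference of its neighbouring compared genes (horizontal axis), coloured by arm; dotted lines lie 0.2 to either side of the median of all compared genes. TRIB3 and CCT3 lie left of them and PDIA6 right, while XBP1 has neighbours near 0 and HSPA6 neighbours at -0.22.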

How the data were processed

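Total RNA, 1 sample per subclone, was isolated on Qiagen columns and hybridised to U133 Plus 2.0 arrays, per the labels' protocols. The authors deposited linear intensities as whole numbers. Per the submitters' processing notes these were normalised by RMA with Affymetrix Expression Console 1.1. The back-transformation and rounding were seen in the values. Which background method was used is not stated in the labels, and it would change low values. Quantile normalisation, a step of RMA, removes differences in total signal. Rounding moved a log2 difference of a compared member by at most 0.02.

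Values were converted to log2. Of 54675 probe sets, 41097 carried 1 gene symbol in the platform annotation, 1801 several and 11777 were not named. Symbols were updated through Entrez identifiers in RefSeq (GRCh38.p14), which also gave each gene's neighbours. No build is named in the files. Members, lists and motifs were chosen with earlier results of these data known. All members above the floor could be named, and of the other listed genes the 2 most negative and 2 most positive of each arm. VBP1, PFDN2, CCT7, EPRS1 and HSPA4L in the closing section, and HSPA1L beside HSPA1A and HSPA1B, fall outside this rule. They were picked with their values known. Alternatives were floors of log2 5, 7 or none, fold rules of 2 and of log2 0.32, averaging a gene's probe sets, only plain probe set identifiers, centring on all probe sets or on hybridisation controls, a lowess on mean level (span 0.3), and leaving out members of shifted chromosome segments. With 1 array per group, the number of arrays limits the precision. Scripts were tested on simulated data. Python 3.11.15, numpy 2.4.6, pandas 2.3.3 and statsmodels 0.14.6 were used.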

Additional observations from a re-analysis of the deposited data

How the results depend on the processing

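No paired analysis was possible because each subclone had 1 array. The 4 members past 1.5-fold kept their sign under every alternative in which they could be compared, which says little. Changes of floor, fold rule or segment filter leave a difference as it is, and the shift by the controls was smaller than these differences. XBP1 and TRIB3 did not reach the floor when probe sets were averaged, so their sign was not compared there. Centred on the hybridisation controls, the median log2 differences were 0.034 for all members, -0.022 for the cytosolic, 0.18 for the ER and -0.040 for the amino acid arm, 17 of 37 members were negative (30.8% of all compared genes, whose median was 0.14), and 1 was at least 1.5-fold lower; this is by construction a shift of all differences by 0.18, and 10 members turned positive. When a gene's probe sets were averaged, only 19 members reached the floor: 13 were negative, 1 was at least 1.5-fold lower and the ER median of 0.36 is the midpoint of HSPA5 (0.02) and PDIA6 (0.70), the 2 ER members left. With plain identifiers 13 of 18 members were negative. At a floor of log2 7, 0 of 28 members were at least 1.5-fold lower, since HSPA6, XBP1 and TRIB3 lie below it. At 2-fold, 0 members were lower and 0 higher, against 0.758% and 1.21% of all compared genes. At a log2 difference of 0.32 the count lower was 8. Without members of shifted chromosome segments 0 were at least 1.5-fold higher. DNAJA1 turned positive with averaged probe sets and with plain identifiers, HSPA5 (0.02) and MTHFD2 (0.01) with averaged probe sets, and DNAJB9 (0.05) with the lowess. Of 2 alternatives added after seeing the data, the first took in probe sets shared with small RNA genes, and 28 of 39 members were negative. The second took the HSPA1A and HSPA1B sets as 1 entry, and 4 of 38 were at least 1.5-fold lower. In the main setting 55.7% of all compared genes were negative, 3.76% at least 1.5-fold lower and 4.24% higher. For averaged probe sets, plain identifiers, the floor of log2 7 and the log2 difference of 0.32, no share of all compared genes is given. Those counts therefore do not set the members apart.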

Other observations

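The other subunits of the folding machines that act on new proteins were looked up after the values of the members had been seen, so their counts carry no weight as evidence. Prefoldin passes unfolded actin and tubulin to the chaperonin TRiC. Of its 4 subunit genes above the floor, PFDN4 read 61 in CD2-positive cells, against 98 in CD2-negative cells, VBP1 read 128 in CD2-positive and 193 in CD2-negative cells, PFDN2 read 107 in CD2-positive and 140 in CD2-negative cells, and PFDN5 read 575 in CD2-positive and 539 in CD2-negative cells. PFDN4 was above the floor in CD2-negative cells only, and the neighbours of VBP1 on chromosome X had a median of -0.41. The 7 TRiC subunit genes with a probe set of their own were 4 negative and 3 positive, from -0.47 for CCT3 to 0.24 for CCT5. Among all compared genes 55.7% were negative. The positive ones include CCT7, nearly level at 193 in CD2-positive and 192 in CD2-negative cells. With the hybridisation controls at 0, 2 of the 7 were negative, against 30.8% of all compared genes.

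Aminoacyl-tRNA synthetases, many of which are ATF4 targets, had 14 genes above the floor, 13 negative and 1 positive, and a median of -0.15. This family too was looked up after the values had been seen. Most of the 14 were already counted among the further amino acid stress genes, so these counts carry no weight as evidence. Among all compared genes 55.7% were negative and the median was -0.05. With the hybridisation controls at 0 the median was 0.03 and 6 of the 14 were negative, against 0.14 and 30.8% for all compared genes. EPRS1 read 204 in CD2-positive cells, against 328 in CD2-negative cells, 1.61-fold lower, and its neighbours on chromosome 1 had a median of -0.34. HSPA4L, an HSP110 relative below the floor, read 16 in CD2-positive and 42 in CD2-negative cells.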
